A study of Triticum aestivum with 4 samples.

Results

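The regions described here are stretches of wheat DNA that the authors listed as differing in CpG methylation between a control and an ultrasound library and that overlap an annotated gene, called genic CpG regions below. They were all the regions of the deposited CpG list whose placement relative to their gene is given as overlapping. There were 344 of them, or 54.3% of the 634 listed CpG regions and part of 3119 listed regions in all 3 sequence contexts, and they belonged to 339 genes. The choice used placement only, but every region had entered the list through the authors' own comparison of the same libraries, so a difference between the libraries is a condition of being listed and not a result.

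Bread wheat is a hexaploid with A, B and D subgenomes, each with its own set of chromosomes. Plant DNA carries 5-methylcytosine in the symmetric CpG and CHG contexts and the asymmetric CHH context, where H is A, C or T. CpG methylation is copied after replication by a maintenance methyltransferase that reads the old strand. In plants it is found over transposons in all contexts and, in the CpG context alone, over the bodies of many steadily expressed genes.

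The seedlings were of the winter wheat breeding line SE15, grown from seeds with a water content of 13.6%. In the ultrasound group 100 seeds in open dishes had received 30 kHz ultrasound at 70 W for 5 min from 4 cm away, and in the control group 100 seeds had not. Both groups germinated in darkness at 20 °C and seedlings were taken at day 7. The labels do not say which parts of the seedling were used, and DNA methylation alone gave no check of the tissue. The labels name 2 libraries a group, although the design text speaks of 3 biological samples, and the levels analysed here come from 1 of each, numbered 1. The control column carries a letter that the labels leave unexplained; it was read as the control. Each level is a single measurement without a replicate, no test between the groups was possible, and "lower" and "higher" compare the ultrasound library with the control library. How many reads stand behind a level is unknown, and the genome build is not given in the sources used here, so positions are those of the authors' list.

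A methylation level in percent was given in both libraries for 245 of the 344 genic regions. How it was formed from the CpG sites of a region is not stated. Of the 245 regions, 185 were lower after ultrasound and 60 were higher, with none equal. The share lower was 75.5% (95% exact binomial interval 69.6 to 80.8), beside 71.7% over all 480 listed CpG regions with both levels. As ultrasound minus control, the difference had a median of -19.6 percentage points (order-statistic interval -21.0 to -17.2), beside -18.3 points over all listed CpG regions. Intervals count regions and do not cover the variation between seedlings. Control levels had a median of 43.6% and ultrasound levels one of 26.3%, with quartiles of 17.6 to 66.1% and 9.10 to 46.0%, respectively. The distributions of levels overlapped over their whole range.

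Differences of 25 points or more were common in either direction. They made up 81 lower regions, or 33.1% of the genic regions with levels, where the same share over the CpG list was 32.7%. They also made up 37 higher regions, or 15.1%, beside 15.6% over the list. Higher regions, of any size of difference, were 28.3% of the list. The smallest difference was a decrease from 60.4% to 58.1% in a region of TraesCS4B02G173900 (4B, 381289750 to 381290898), so a listed region need not differ by much.

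**Figure D1:**
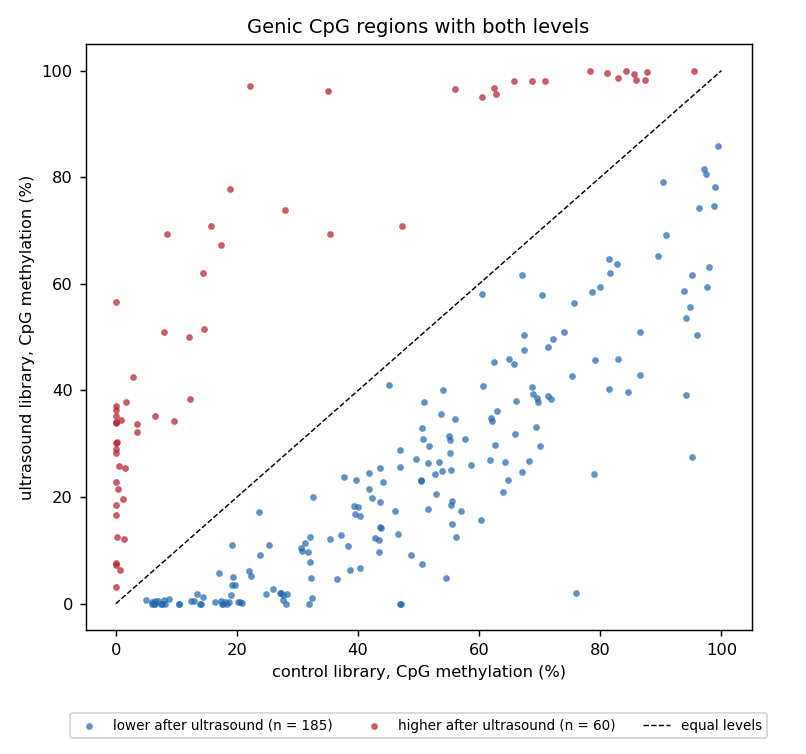
CpG methylation level of the 245 genic regions with both levels, control library on the horizontal and ultrasound library on the vertical axis, both in percent; each point is a region and the dashed line marks equal levels. The 185 lower regions lie below the line over the whole range of control levels, while the higher regions fall into a column near 0% in the control, a row at 95.0% or more in the ultrasound library and a looser group between them.

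The lower regions had control levels from 5.06 to 99.4%. Their control median was 50.4% and their ultrasound median 21.0%, with a median difference of -23.0 points. Among the regions with a control level of 40% to under 60%, 50 of 52 were lower, and among those of 20% to under 40%, 36 of 40. The flanking CpG regions, those upstream or downstream of a gene, gave 29 of 35 and 30 of 34 in these classes. Of the regions with both levels and a control level of 90% or more, 17 of 18 were lower, with a control median of 95.7% and an ultrasound median of 66.1%. Among flanking regions at that control level, 22 of 26 were lower. Below 20% in the control, higher regions outnumbered lower ones, with 33 lower and 39 higher. The flanking CpG regions gave 18 lower and 34 higher in that class. A region near 0% cannot be much lower and a region near 100% cannot be much higher, which bounds these counts.

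In 42 of the lower regions the ultrasound level was under 2%. Their control levels ran from 5.06 to 47.1% with a median of 16.8%. An ultrasound level of exactly 0% was listed for 17 regions with both levels, and a control level of 0% for 15. The flanking CpG regions, nearly as many, had 3 and 11.

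Most higher regions had either low or high control levels. In 39 of the 60 the control level was under 20%, with a median of 0.758%, and the ultrasound level had a median of 33.9% and reached 77.8%. In 15 the control level was 60% or more, with a median of 81.1%, and every one of these stood at 95.0% or more after ultrasound. The others lay between, 4 at control levels of 20% to under 40% and 2 at 40% to under 60%. No higher region had an ultrasound level between 77.8 and 95.0%. Among genic regions with both levels, the 18 at 90% or more in the ultrasound library were all higher there, with a median length of 514.5 bp. Of the flanking CpG regions with both levels, 35 of 35 at that level were higher.

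The 5 largest decreases belonged to genes for which the list gives no description. A region of 1213 bp in TraesCS2B02G526400 (2B, 720799871 to 720801084) had 75.9% in control seedlings and 2.00% in treated ones, a difference of -73.9 points. In TraesCS2A02G452600 (2A, 702112047 to 702113773) the levels were 95.1% and 27.6%. TraesCS1B02G388700 (1B, 622465578 to 622466456) was at 94.1% and 39.2%.

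TraesCS7B02G488600 (7B, 743093992 to 743096939) was at 79.0% and 24.4%. TraesCS5B02G471600 (5B, 644884792 to 644885451) was at 54.5% and 4.83%. All 5 thus had an ultrasound level above 0%, the smallest being 2.00%, though the reads behind these levels are unknown. Of the 5, 3 overlapped a listed CHG region, beside 25.3% of all genic regions.

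Only 1 of the 5 largest increases lay in a described gene. The largest of all genic differences was a region of 19076 bp over TraesCS3B02G020500 (3B, 8764656 to 8783732), which encodes a PAP fibrillin domain protein of the plastid lipid-associated family, with a control level of 22.2% and an ultrasound level of 97.1%. The region was far longer than the median genic region, of 1093 bp, and how many reads stand behind its level is unknown. A region of 492 bp in TraesCS2A02G073700 (2A, 32503357 to 32503849) was at 35.0% and 96.1%.

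TraesCS7B02G405700 (7B, 674128313 to 674129208) was at 8.45% and 69.4%. TraesCS7A02G529300 (7A, 709164676 to 709165447) was at 18.9% and 77.8%. TraesCS2B02G216800 (2B, 202921082 to 202923579) was listed at 0% in the control and stood at 56.6% after ultrasound. This last was the highest ultrasound level among the 15 regions listed at 0% in the control that had an ultrasound level; the others reached from 3.22 to 37.0%. In all, 17 genic regions were listed at 0% in the control.

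At the top of the scale, the 3 highest control levels were all lower after ultrasound. TraesCS6B02G277500 (6B, 502309345 to 502309776) was at 99.4% and 85.9%, TraesCS7D02G408400 (7D, 526239397 to 526239888) at 99.0% and 78.1%, and TraesCS4A02G068300 (4A, 66801663 to 66802051) at 98.8% and 74.5%. At the bottom, among the regions listed at 0% in the control, the 3 with the smallest ultrasound levels were TraesCS1D02G186800 at 3.22%, the 3-ketoacyl-CoA synthase gene TraesCS4B02G278800 at 7.26% and TraesCS7B02G384200 at 7.55%.

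A description was given for the genes of 44 genic regions, and 29 of these had both levels. Of the 29, 20 were lower and 9 higher, or 69.0% lower, beside 71.7% over the CpG list and 76.4% of the genic regions without a description. Their median difference was -18.0 points. The described genes were sorted into 10 groups by words in their descriptions. Groups of this size, with 2 to 8 regions each, can only be described member by member, and their counts are to be read against the same 71.7%.

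**Figure D2:**
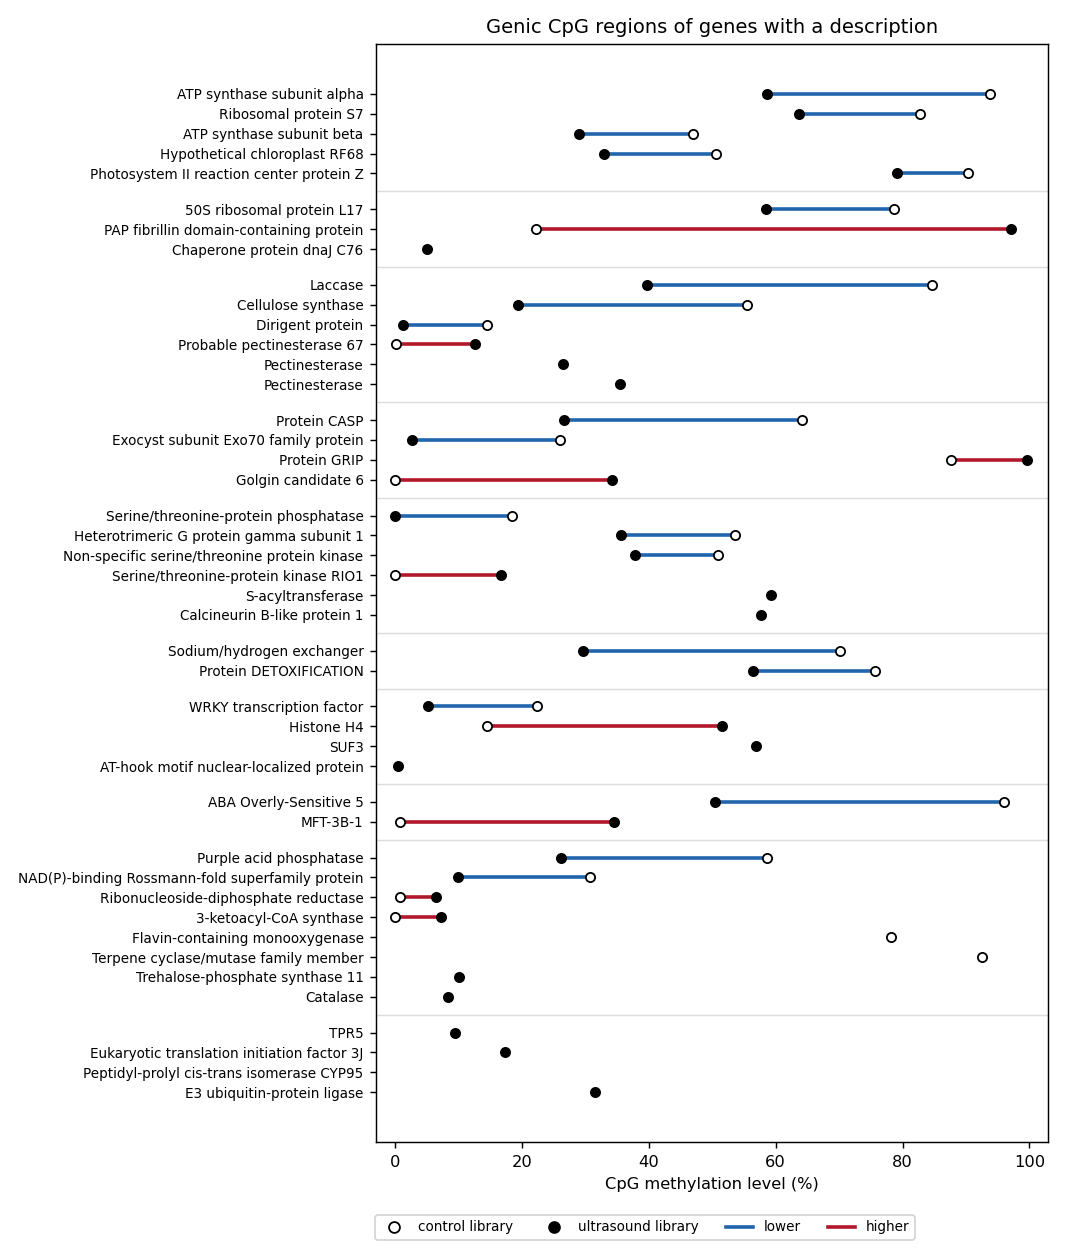
CpG methylation level in percent of the 44 genic regions whose gene has a description, in 10 groups separated by grey lines (from the top: names of organelle-encoded genes, plastid proteins, cell wall, Golgi and secretion, signalling, transport, chromatin and transcription, seed dormancy and abscisic acid, metabolism, RNA and protein handling); open circles are the control and filled circles the ultrasound library, and a line joins them where both levels are given. The 5 names of organelle-encoded genes are all lower, the Golgi group is split evenly, and the peptidyl-prolyl isomerase CYP95 has no level.

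All 5 regions of genes that carry the name of an organelle-encoded gene were lower after ultrasound, beside the 71.7% lower over the CpG list. They lie on nuclear chromosomes in the list; how reads from the organelle genomes were kept apart from such copies is not given in the sources used here, so their source is uncertain. ATP synthase subunit alpha (TraesCS2A02G547200; 2A, 755480400 to 755482074), part of the catalytic head of the enzyme, had a control level of 93.8% and an ultrasound level of 58.6%. Ribosomal protein S7 (TraesCS4B02G146200; 4B, 209112000 to 209113179), of the small ribosomal subunit, was at 82.7% and 63.7%.

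ATP synthase subunit beta (TraesCS2D02G284400; 2D, 359630955 to 359632723), which carries the catalytic sites, was at 46.9% and 28.9%. The hypothetical chloroplast reading frame RF68 (TraesCS1A02G337500) was at 50.6% and 32.9%, and photosystem II protein Z (TraesCS4D02G155100), a small subunit of that complex, at 90.4% and 79.1%. The 4 smaller decreases of the group thus ran from -19.1 to -11.3 points.

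Of the plastid proteins that the nucleus encodes, 1 region with both levels was lower and 1 higher. The chloroplast ribosomal protein L17 gene (TraesCS5B02G481100; 5B, 653782414 to 653783227) was at 78.6% and 58.4%. The fibrillin gene described above was the higher member of this group.

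Among cell wall genes, 3 of 4 regions with both levels were lower. A laccase gene (TraesCS3D02G444900), of an enzyme family that oxidises lignin precursors, had the largest of these differences, -45.0 points from a control level of 84.6%. A cellulose synthase gene (TraesCS5B02G469200; 5B, 642836963 to 642837875) was at 55.5% and 19.3%. A dirigent protein gene (TraesCS2D02G156000; 2D, 99572744 to 99573128), of a family that guides the coupling of phenolic precursors, was at 14.4% and 1.21%.

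The higher member was a probable pectinesterase 67 gene (TraesCS3B02G598100; 3B, 819956507 to 819957219), at 0.203% and 12.6%. Pectinesterases remove methyl esters from pectin. Regions in 2 further pectinesterase genes had a level in the ultrasound library only, 26.5% in TraesCS2A02G109600 and 35.4% in TraesCS2D02G120500.

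Genes of the Golgi apparatus and secretion were split evenly. The gene for Protein CASP (TraesCS4D02G046300; 4D, 21883139 to 21883716), a Golgi membrane protein in Arabidopsis, had 64.2% in control and 26.6% in treated seedlings. An Exo70 gene (TraesCS2A02G541100; 2A, 752767299 to 752768083), for a subunit of the exocyst that tethers secretory vesicles to the plasma membrane, was at 25.9% and 2.73%. Protein GRIP (TraesCS2D02G238300; 2D, 247834844 to 247835560), a golgin of the trans-Golgi in Arabidopsis, was higher, at 87.6% and 99.7%. Golgin candidate 6 (TraesCS5B02G100400; 5B, 133585772 to 133586354) was listed at 0% and stood at 34.1%.

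Signalling genes were lower in 3 of 4 regions. A serine/threonine-protein phosphatase gene (TraesCS5B02G464000; 5B, 638842236 to 638843210) was at 18.4% in the control and listed at 0% after ultrasound. A gene for a gamma subunit of heterotrimeric G proteins (TraesCS5B02G381300; 5B, 559677346 to 559678309) was at 53.6% and 35.5%. The kinase RIO1 gene (TraesCS2A02G223900; 2A, 221079143 to 221080004), known from the maturation of the small ribosomal subunit, was the higher member, listed at 0% and at 16.7%. The fourth was a serine/threonine protein kinase gene (TraesCS1A02G080600), at 50.9% and 37.7%.

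Both transport genes were lower. A sodium/hydrogen exchanger gene (TraesCS7A02G242300; 7A, 217587246 to 217587780), which swaps sodium for protons across membranes, was at 70.1% and 29.7%. A DETOXIFICATION gene (TraesCS7D02G365700; 7D, 472539232 to 472539821), of a family of efflux carriers, was at 75.6% and 56.5%.

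The genes tied to chromatin, transcription and seed dormancy went in opposite directions within each group. A WRKY transcription factor gene (TraesCS5D02G190800) was lower, by a difference of -17.2 points from a control level of 22.4%. The histone H4 gene (TraesCS6B02G078600), for a core protein of the nucleosome, was higher by 37.0 points. An Arabidopsis-named ABA Overly-Sensitive 5 gene (TraesCS6D02G178700; 6D, 187500574 to 187501025), whose Arabidopsis counterpart affects the splicing of a mitochondrial transcript and the response to abscisic acid, was at 96.0% and 50.5%.

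The MFT-3B-1 gene (TraesCS3B02G010100; 3B, 4734475 to 4744197), of the MOTHER OF FT AND TFL1 family that is known in wheat as a regulator of germination, was at 0.833% in the control and 34.5% after ultrasound. That region spanned 9722 bp. It was 1 of 8 genic regions of 5000 bp or longer with both levels, of which 4 were lower and 4 higher.

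Of the 4 regions of metabolic genes with both levels, 2 were lower and 2 higher. A purple acid phosphatase gene (TraesCS5D02G449800; 5D, 498556775 to 498557499), of a family that releases phosphate from organic esters, was at 58.6% and 26.1%. A gene of the NAD(P)-binding Rossmann-fold superfamily (TraesCS7D02G484800; 7D, 595311591 to 595312501), a large family that includes many dehydrogenases, was at 30.7% and 9.98%. The 3-ketoacyl-CoA synthase gene named above, for an enzyme that elongates very long-chain fatty acids, was higher by 7.26 points. A ribonucleoside-diphosphate reductase gene (TraesCS6B02G410800; 6B, 684672972 to 684673546), for the enzyme that makes deoxyribonucleotides, was at 0.758% and 6.38%.

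Levels were missing in at least 1 library for 99 genic regions, or 28.8%, beside 24.3% of the whole CpG list and 19.0% of the flanking CpG regions. The gap was mainly on the control side, where 91 regions had no level, against 24 in the ultrasound library. For 75 regions only the ultrasound level was given, with a median of 26.5%, for 8 only the control level, with a median of 22.0%, and for 16 neither. Regions without both levels were longer, with a median of 1439 bp against 973 bp for the others.

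Single levels spanned the scale. The 3 highest were all in the ultrasound library, in regions of TraesCS7D02G469300 (99.5%), TraesCS5B02G258000 (99.4%) and TraesCS7D02G309600 (99.2%). Among described genes with an ultrasound level only, a catalase gene (TraesCS7B02G473400), for an enzyme that breaks down hydrogen peroxide, stood at 8.27%. SUF3 (TraesCS2A02G585700), in Arabidopsis a subunit of the complex that places the histone variant H2A.Z, stood at 56.8%, and the calcium sensor calcineurin B-like protein 1 (TraesCSU02G178500) at 57.7%.

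An S-acyltransferase gene (TraesCS2B02G585200), for an enzyme that attaches fatty acids to proteins, stood at 59.2%, an E3 ubiquitin-protein ligase gene (TraesCSU02G231400) at 31.5% and an AT-hook protein gene (TraesCS6A02G053800) at 0.500%. With a control level only were a terpene cyclase/mutase gene (TraesCS5B02G004800), at 92.6%, and a flavin-containing monooxygenase gene (TraesCS2B02G085800), at 78.2%. Of the other described genes, TPR5 (TraesCS1A02G073400), the subunit J gene of translation initiation factor 3 (TraesCS6A02G066400), a chloroplast DnaJ chaperone gene (TraesCS2A02G556100) and a trehalose-phosphate synthase gene (TraesCS6B02G384500) had an ultrasound level only, between 5.06 and 17.3%. A region in the gene of the peptidyl-prolyl isomerase CYP95 (TraesCS6B02G208900) had no level in either library.

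Length, taken as end minus start, ran from 277 to 25316 bp with a median of 1093 bp. Direction differed between length classes. Below 500 bp, 22 of 38 regions were lower and the median difference was -7.02 points. From 500 to under 1000 bp it was 59 of 87, with -18.1 points. From 1000 to under 2000 bp it was 78 of 85, or 91.8%, with -22.2 points. From 2000 to under 5000 bp, 22 of 27 were lower, with -22.6 points.

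Among flanking CpG regions, 15 of 32 were lower below 500 bp, 71 of 108 from 500 to under 1000 bp, 59 of 77 from 1000 to under 2000 bp and 13 of 16 from 2000 to under 5000 bp. Below 5000 bp, the share lower was thus smallest in the shortest class of both sets, but greatest from 1000 to under 2000 bp in genic regions and from 2000 to under 5000 bp in flanking ones. The higher genic regions had a median length of 706 bp and the lower ones of 1110 bp. The number of CpG sites per region was not used here, so whether short regions were listed on fewer sites was not tested.

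**Figure D3:**
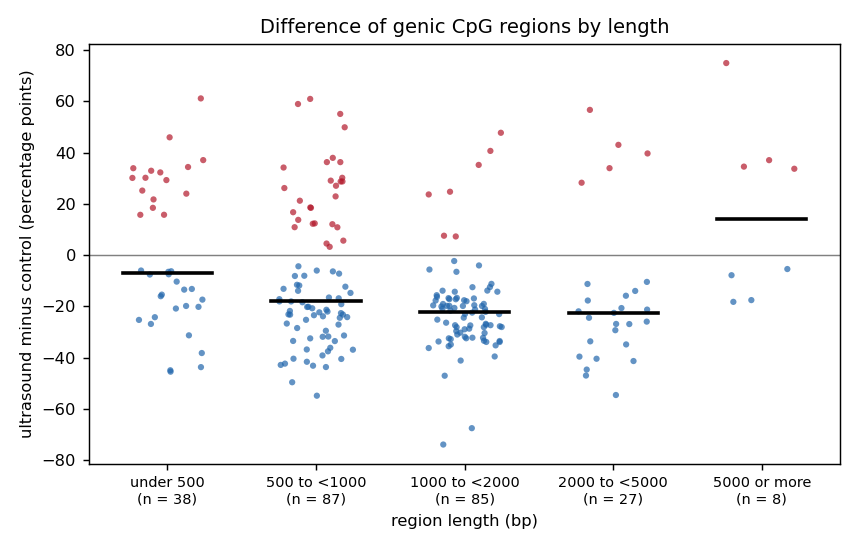
Difference in CpG methylation, ultrasound minus control in percentage points, of the genic regions with both levels in 5 classes of region length in bp; each point is a region (blue lower, red higher; horizontal scatter is for display) and black bars are medians. The share of blue points is greatest between 1000 and 2000 bp, with 78 of 85 regions, and the 8 longest regions are split evenly.

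The 5 longest regions were mostly without a full pair of levels. The longest, in TraesCSU02G159200 on unplaced sequence, spanned 25316 bp and had an ultrasound level of 3.65% only. A region of 19971 bp in TraesCS2A02G023200 was listed at 0% in the control and had no ultrasound level. A region of 14945 bp in TraesCS6D02G401800 (6D, 470650523 to 470665468) was at 17.6% and listed at 0% after ultrasound. The fibrillin and calcineurin B-like regions were the others. Regions of this size extend over much more sequence than a short one, and the list does not say which part lay in the gene.

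Genic CpG regions were listed on all 21 chromosomes, with 6 on 4D to 24 on 2A, and 15 on unplaced sequence. By subgenome, 48 of 61 regions with levels were lower in A (78.7%), 64 of 95 in B (67.4%) and 66 of 79 in D (83.5%), with median differences of -23.0, -18.1 and -20.2 points. Flanking CpG regions had another order, with 68.6% lower in A, 78.6% in B and 59.3% in D. These differences between subgenomes were not tested.

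Among single chromosomes, all 5 regions with levels on 3A were lower, as were 11 of 12 on 3D and 10 of 11 on 5D. On 1D, 6D and 7A it was 9 of 10 each, and over the CpG list the share was 71.7%. Counts per chromosome were small, and differences between chromosomes were not tested. On 4B, 3 of 8 were lower and 5 higher, the single chromosome where higher regions outnumbered lower ones. By strand, 93 of 122 regions were lower for genes on the plus strand and 92 of 123 for genes on the minus strand.

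**Figure D4:**
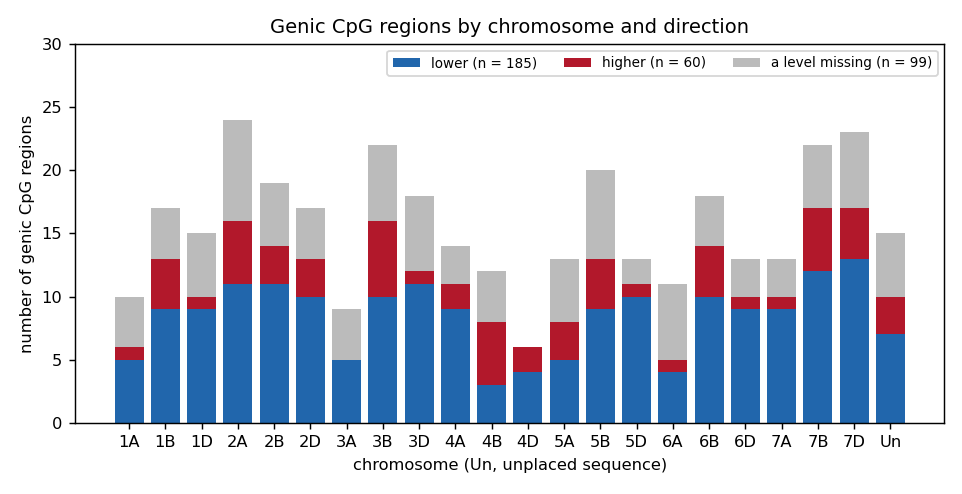
Number of genic CpG regions on each wheat chromosome and on unplaced sequence (Un), stacked as lower after ultrasound (blue), higher (red) and without both levels (grey). Lower regions outnumber higher ones in every column except 4B, which has 3 lower and 5 higher.

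In 4 genes more than 1 genic CpG region was listed. TraesCS6B02G213000 held 3 close together, and they did not share a direction. The first (6B, 286711803 to 286712327) was at 12.2% in the control and 50.1% after ultrasound, while the second (6B, 286712924 to 286713283), 596 bp further, was at 97.6% and 59.3%. The third (6B, 286713290 to 286713879) was at 96.2% and 74.2%. In the control the first region thus stood far below the other two, which were close to each other, and after ultrasound it was still the lowest of them.

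The other genes had pairs of regions that lay side by side and differed alike. In TraesCS2D02G243900 (2D, from 272806693 to 272808873) adjoining regions were at 42.8% and 12.4% and at 39.6% and 16.9%. In TraesCS2D02G019300 (2D, from 9078789 to 9081994) they were at 27.1% and 1.92% and at 24.8% and 1.82%. In TraesCS3B02G146500 (3B, from 136449316 to 136449945) both were higher, at 0.281% and 30.4% and at 1.58% and 25.5%. Such pairs share their sequence surroundings, so they are not separate observations.

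Some genic CpG regions lay in chains of listed regions of any context, here at least 4 separate loci with gaps of up to 10 kb. There were 14 such chains with 22 genic CpG regions, and all 21 of these with both levels were lower, beside the 71.7% of the CpG list. Their differences had a median of -22.7 points and quartiles of -29.7 and -19.6 points. The 22 regions were 750 bp or longer, and control levels of the 21 were 17.0% or more, with a median of 51.6%. Of all genic regions from 1000 to under 2000 bp, 78 of 85 were lower. Regions of the same chain lie close together, so they are not separate observations. The chain with the most listed regions lay on 2B (474895280 to 474925528) and had 17 of them at 9 genes, of which 2 were genic CpG regions, with differences of -19.6 and -29.0 points. Without the chains, 164 of 224 genic regions were lower, or 73.2%.

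CHG methylation gave a second readout at some of the genic regions. Of the 344, 87 (25.3%) overlapped a listed CHG region by at least 1 bp, in 96 pairs, of which 79 had levels throughout. These 79 pairs came from 70 genic regions, and the interval given for them counts pairs as if they were separate. In 77 of the 79 pairs (97.5%, interval 91.2 to 99.7) both contexts had the same direction, with 69 lower and 8 higher in both. Both contexts were read from the same pair of libraries, and 78.2% of all CHG regions with levels were lower, so this is no independent support for a direction.

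CpG levels were above CHG levels in the medians of these pairs. The CpG medians were 50.4% in the control and 24.5% after ultrasound, and the CHG medians 30.1% and 15.3%. In points, the CpG difference was the larger in 71 of the 79 pairs, with medians of -23.0 points for CpG and -13.9 points for CHG. The CHG control median was the lower one, which bounds how far CHG levels could fall in points.

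**Figure D5:**
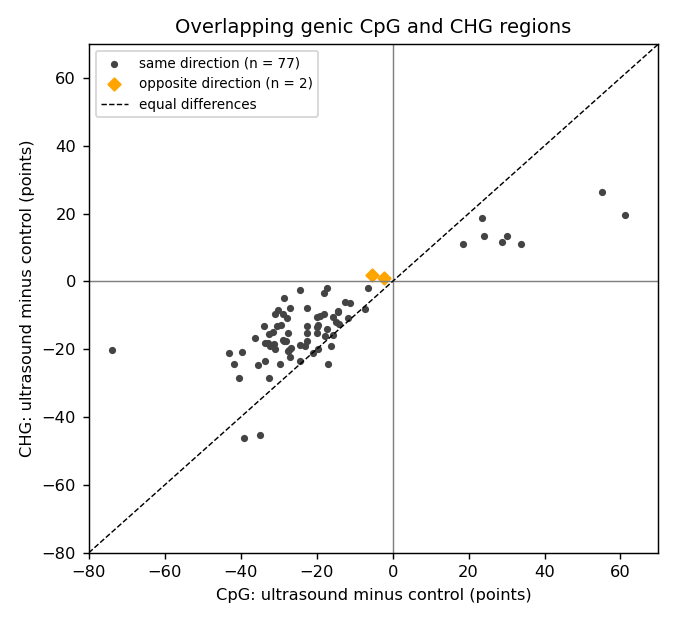
Difference in methylation, ultrasound minus control in percentage points, of 79 pairs of a genic CpG region and an overlapping CHG region, CpG on the horizontal and CHG on the vertical axis; the dashed line marks equal differences. The 77 pairs of the same direction lie in the lower left and upper right corners, and 71 of the 79 pairs have the larger difference in CpG.

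Of the 5 genes with the largest CpG differences among these, TraesCS2B02G526400 had CHG levels of 20.4% in the control and 0.167% after ultrasound beside its CpG levels of 75.9% and 2.00%. TraesCS2A02G073700 had CHG levels of 1.92% and 21.4%, and TraesCS5B02G361500 of 5.04% and 31.4% beside CpG levels of 15.7% and 70.8%. In TraesCS2A02G452600 and TraesCS7B02G488600 only the ultrasound CHG level was given, 14.5% and 13.6%.

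The pairs with opposite directions had small differences. TraesCS1B02G082000 differed by -5.45 points in CpG and 1.77 in CHG, and TraesCS4B02G173900 by -2.33 and 0.935. Genic CpG regions that overlapped a CHG region were lower in 66 of 74 cases with levels, or 89.2%. Those that did not were lower in 119 of 171, or 69.6%. The sets also differed in median length, 1249 bp against 973 bp, and in median control level, 50.4% against 39.7%. Among those with levels, 1 against 14 were listed at 0% in the control. The difference in the share lower was not tested. Overlaps with CHH regions were few, 5 in all, and 3 of them had levels throughout, with the same direction in both contexts in 2 and the opposite one in 1. TraesCS1D02G186800 was higher in both, by 3.22 points in CpG and 20.4 in CHH. TraesCS7D02G128400 was lower in both, with differences of -10.4 and -22.2 points. In TraesCS2A02G002800 the CpG level was 62.0% in the control and 34.8% after ultrasound, while an overlapping CHH region was listed at 0% and stood at 14.6%.

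Of the 235 flanking CpG regions with levels, 159 or 67.7% were lower. The share lower among genic regions was 7.85 points larger. The interval of this gap, -0.504 to 16.1, counts regions only and is no test between the classes. Restricted to differences of 25 points or more, the gap was 1.98 points (-10.6 to 14.5). Genic regions had lower levels than flanking ones in both libraries, with medians of 43.6% and 26.3% against 57.6% and 39.8%. Over all listed regions, with or without levels, the median length was 1093 bp in the 344 genic and 894 bp in the 290 flanking ones. For genic regions with both levels it was 973 bp, and no such value was computed for flanking regions. The median difference was -17.0 points for flanking regions. No test was run, because regions of 1 library a group are not replicates.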

How the data were processed

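DNA of seedlings was converted enzymatically and sequenced, per the labels' protocols, whereas the titles speak of bisulfite sequencing. Per the submitters' processing notes, the authors used Bismark 0.23.1, FastQC 0.11.9, edgeR and Trim Galore 0.6.7; which step each served is not stated there. Nothing states the alignment settings, what defines a region, its coverage or the selection thresholds. The authors deposited, per the file headers, lists of regions with methylation levels in percent for 1 library a group. A further deposited value, other than levels, is the number of lists a region was found in, which was 2 throughout. The authors' list names contain Chi and EdgeR. Such a selection may favour large or well covered differences, though its thresholds are not stated. Counts therefore describe listed regions and not the genome. All columns of values were assigned; 0 were left over.

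A difference is the ultrasound level minus the control level. Regions lacking a level were left out of directions and medians. Intervals are 95% Clopper-Pearson intervals for shares, order-statistic intervals for medians and Newcombe intervals for the gap between shares; the first and second kinds were tested on simulated data. They cover counting error over regions only, or over pairs of regions for the agreement with CHG. Computations used Python 3.11.15, pandas 2.3.3 and scipy 1.17.1. None of the genes' identifiers matched the RefSeq gene table (0 of 339), so names are those of the list and no sequence is shown. Members, gene groups and comparisons were chosen with earlier results of these data known. Named genes were the 5 largest increases and decreases, all with a description, the 5 longest regions, the 3 highest and lowest control levels, genes with several regions, the 5 largest differences with an overlapping CHG or CHH region and the 3 highest single levels. TraesCS4B02G173900, TraesCS1B02G082000, TraesCS2A02G002800, TraesCS1D02G186800 and TraesCS7D02G128400 for their CHH overlap, single chromosomes and one chain were singled out after their values were seen.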

Additional observations from a re-analysis of the deposited data

How the results depend on the processing

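The share lower and the median difference of genic CpG regions kept their direction under every alternative run. With only differences of at least 25 points, the share lower was 68.6% and the median difference -29.1 points, over 118 regions. The mean in place of the median gave -11.5 points. The cause was not tested; the mean also weighs the 60 higher regions by their size. A minimum of 10 points, each gene counted once, merging of neighbours within 10 kb, and leaving out regions of 5000 bp or longer, unplaced sequence or names of organelle-encoded genes left both values within the intervals of the report. So did leaving out regions listed at 0% or in chains, 2 alternatives chosen after seeing the data, as were those for the gap to flanking regions. The median length was 973 bp for regions with both levels and 1101 bp with each gene counted once. The agreement with CHG was 96.9% when 50% of the shorter region had to overlap and 94.3% when pairs were made by gene. No paired analysis was possible because the lists hold levels of 1 library a group. Depth is unknown, so how it limits single levels, among them those listed at 0%, cannot be given.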
